A study of Mus musculus with 6 samples.

Results

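Aquaporins are channels of the cell membrane, and 8 members of the mouse family are described here: Aqp1, Aqp3, Aqp4, Aqp5, Aqp7, Aqp8, Aqp9 and Aqp11. They were found by symbol and make up 8 of the 26214 features in each count table, where 12 aquaporin symbols are listed in all. The 8 were chosen by their symbols once the CPM difference between the genotypes was known, above all that of Aqp8. Their difference between the groups is therefore described and not tested. RNA sequencing of ribosome-depleted total RNA was carried out on colon tumours of mice given azoxymethane (AOM), a carcinogen, and dextran sulfate sodium (DSS), which injures the colon lining. Both groups had this treatment, and they differed in genotype, Trim21 -/- (3 knockout samples) against Trim21 +/+ (3 wild-type samples). The Trim21 protein is a ubiquitin ligase and binds antibodies in the cytosol. The sources used here do not give sex, age, strain, doses or the cells left in each tumour piece, nor whether samples came from separate mice. The p-values below thus measure the spread between these samples.

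Water follows salt across the colon lining, and aquaporins set how easily it crosses each membrane. Aqp1, Aqp4 and Aqp5 pass mainly water, and Aqp8 passes water, ammonia and hydrogen peroxide. Aqp3, Aqp7 and Aqp9 are aquaglyceroporins, which also pass glycerol, and Aqp11 is a distant member found in membranes inside the cell. In the normal colon, Aqp8 marks absorptive cells at the surface, Aqp4 lies in the basolateral membrane of epithelial cells, and Aqp1 is a channel of small vessels and red blood cells.

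Totals were 17937821 to 19987295 reads in the knockout libraries and 27085599 to 29742757 in the wild-type libraries, so the knockout group was sequenced less deeply. Values per library follow in the order of replicates 1, 2 and 3. Trim21 stood at 12.1, 18.9 and 12.8 CPM (reads of the gene per 1000000 reads of the scaled library) in the knockout libraries, against 29.8, 20.3 and 19.5 CPM in the wild-type ones. The groups were separate but close, and gene counts cannot show whether the remaining reads come from a deleted allele. Wild-type replicates 1 and 3 stood apart from the other libraries. In wild-type replicate 3, 9 markers of skeletal muscle summed to 3248 CPM, against 5.95 to 19.0 CPM in the other 5 libraries. In wild-type replicate 1, 9 smooth muscle markers summed to 333.9 CPM, the lowest value of all 6 libraries. This sum also separated the genotypes, at 1476, 906.9 and 1041 CPM for the knockout against 333.9, 826.3 and 591.6 CPM for the wild type. The Y-linked gene Eif2s3y, looked at after the data were seen along with Ddx3y and Xist, divided the wild-type group, at 7.95 and 5.65 CPM in replicates 1 and 2 but 55.9 CPM in replicate 3, near the 60.0 to 66.6 CPM of the knockout. The other 2 genes did not follow this division. Ddx3y, also Y-linked, lay between 91.8 and 129.2 CPM in all 6 libraries. Xist, which is made from the inactive X chromosome, was low throughout, at 0.347, 0.220 and 0.724 CPM for the knockout and 0.302, 1.59 and 3.97 CPM for the wild type. Aquaporin and list values that move with wild-type replicates 1 or 3 are also given without them, an alternative for the lists that was chosen after seeing the data.

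Promoter stretches of a pair of genes are shown, of the gene with the widest gap between the groups and of one that was barely detected. They are the 240 bases from 250 to 11 bases before the RefSeq start (GRCm38.p6), written on the gene's strand. Capitals mark matches to the TATA box (letters TATAAA), the E-box (letters CACGTG, which read the same on either strand) and the GC box (letters GGGCGG), each sought on both strands.
Aqp8, chr7:123462044-123462283, plus strand: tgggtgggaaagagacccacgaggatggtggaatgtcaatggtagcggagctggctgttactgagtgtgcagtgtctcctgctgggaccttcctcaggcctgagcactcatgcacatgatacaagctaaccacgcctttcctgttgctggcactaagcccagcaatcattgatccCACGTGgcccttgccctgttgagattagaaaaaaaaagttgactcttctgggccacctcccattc
Aqp3, chr4:41098194-41098433, minus strand: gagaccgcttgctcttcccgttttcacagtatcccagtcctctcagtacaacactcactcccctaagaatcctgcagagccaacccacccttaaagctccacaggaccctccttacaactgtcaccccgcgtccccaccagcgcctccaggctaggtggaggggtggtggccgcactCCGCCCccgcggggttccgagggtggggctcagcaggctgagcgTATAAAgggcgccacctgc
The Aqp8 stretch holds 1 E-box, which begins 75 bases before the start, and neither a TATA box nor a GC box. The Aqp3 stretch holds a TATA box 29 bases and a GC box 73 bases before the start, and no E-box. Among 32851 RefSeq promoter windows of the same length, 5.69% hold the E-box, 12.1% the TATA box and 31.3% the GC box. TTTAT, the core that Cdx factors of the gut bind, is in 36.6% of the windows. It is absent from the Aqp8 stretch, and on the minus strand of the Aqp3 stretch it overlaps the TATA box. A match is a description of letters, and binding was not measured.

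Levels of different genes are compared as CPM per kilobase of exon (RPKM). Aqp4, Aqp1 and Aqp8 together made up 98.4% to 98.9% of the summed RPKM of the 8 genes in the knockout libraries and 96.1%, 98.5% and 87.1% in the wild-type libraries. In wild-type replicate 3 Aqp5 took 9.15%. Aqp4 and Aqp1 without Aqp8 made up 91.7%, 96.4% and 83.5% in the wild type. In the knockout group Aqp4 measured 50.5 ± 13.3 RPKM, Aqp1 20.2 ± 1.03 RPKM and Aqp8 19.0 ± 4.31 RPKM (mean ± SD, n = 3). In the wild-type group Aqp4 measured 33.6 ± 27.8 RPKM, Aqp1 18.6 ± 8.50 RPKM and Aqp8 1.69 ± 0.732 RPKM (SD, n = 3). The order of the mean RPKM in the knockout was Aqp4, Aqp1, Aqp8, Aqp11, Aqp5, Aqp9, Aqp3 and Aqp7. Aqp4 stood above Aqp1, and Aqp8 above Aqp11, without overlap of their knockout libraries. All other neighbours in that order overlapped. In the wild type the order was Aqp4, Aqp1, Aqp5, Aqp8, Aqp3, Aqp11, Aqp9 and Aqp7. There the libraries of Aqp1 and Aqp5, of Aqp11 and Aqp9, and of Aqp9 and Aqp7 did not overlap, and the other neighbours did. In wild-type replicates 1 and 2, unlike in the means, Aqp8 (0.912 and 1.78 RPKM) stood above Aqp5 (0.0903 and 0.586 RPKM). Aqp11 (0.324 and 0.392 RPKM) likewise stood above Aqp3 (0.165 and 0.0555 RPKM) in these libraries.

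**Figure D1:**
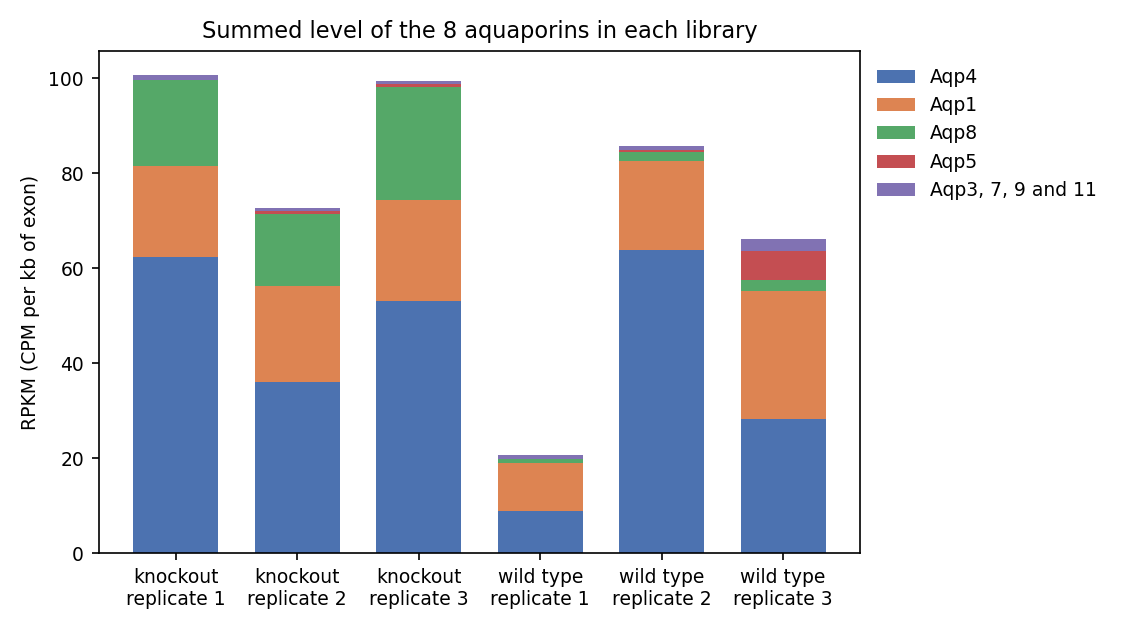
Stacked bars give the RPKM (CPM per kilobase of exon) of the 8 aquaporins in each of the 6 libraries. The Aqp8 segment is 15.3 to 23.7 RPKM high in the knockout libraries and 0.912 to 2.37 RPKM in the wild-type libraries, and the whole bar of wild-type replicate 1 is the shortest, at 20.6 RPKM.

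The mix of channels differed most in Aqp8. It made up 17.9%, 21.1% and 23.9% of the summed RPKM of the 8 genes in the knockout libraries, against 4.43%, 2.08% and 3.58% in the wild-type libraries. Each knockout library thus gave Aqp8 a larger share than any wild-type library did. Aqp4 took 49.7% to 61.9% in the knockout and 42.6% to 74.4% in the wild type, so its shares overlapped. Aqp1 took 19.1% to 27.6% and 22.0% to 48.6%. The RPKM of Aqp1 was 0.895 to 1.31 times that of Aqp8 in knockout libraries and 10.6 to 11.4 times in wild-type libraries. The summed RPKM was 100.7, 72.6 and 99.3 for the knockout and 20.6, 85.6 and 66.1 for the wild type, which overlap. The aquaglyceroporins together made up 0.232% to 0.387% in the knockout and 0.378% to 2.94% in the wild type, and each library held at most 115 of their reads.

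Aqp8 was the member whose groups lay far apart. This protein-coding gene spans positions 123462291 to 123468004 of chromosome 7 (mm10, plus strand). Its reads numbered 574, 441 and 726 in the knockout and, in the deeper wild-type libraries, 43, 83 and 101. Even unscaled, every knockout count exceeded every wild-type count. On the CPM scale these are 28.5, 24.2 and 37.5 in the knockout against 1.44, 2.81 and 3.74 in the wild type. The lowest knockout value was 6.47 times the highest wild-type value. In the fit across all genes its log2 fold change was 3.50 (standard error 0.36), an 11.3-fold difference. It lay between 3.20 and 3.82 when 1 library at a time was left out.

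**Figure D2:**
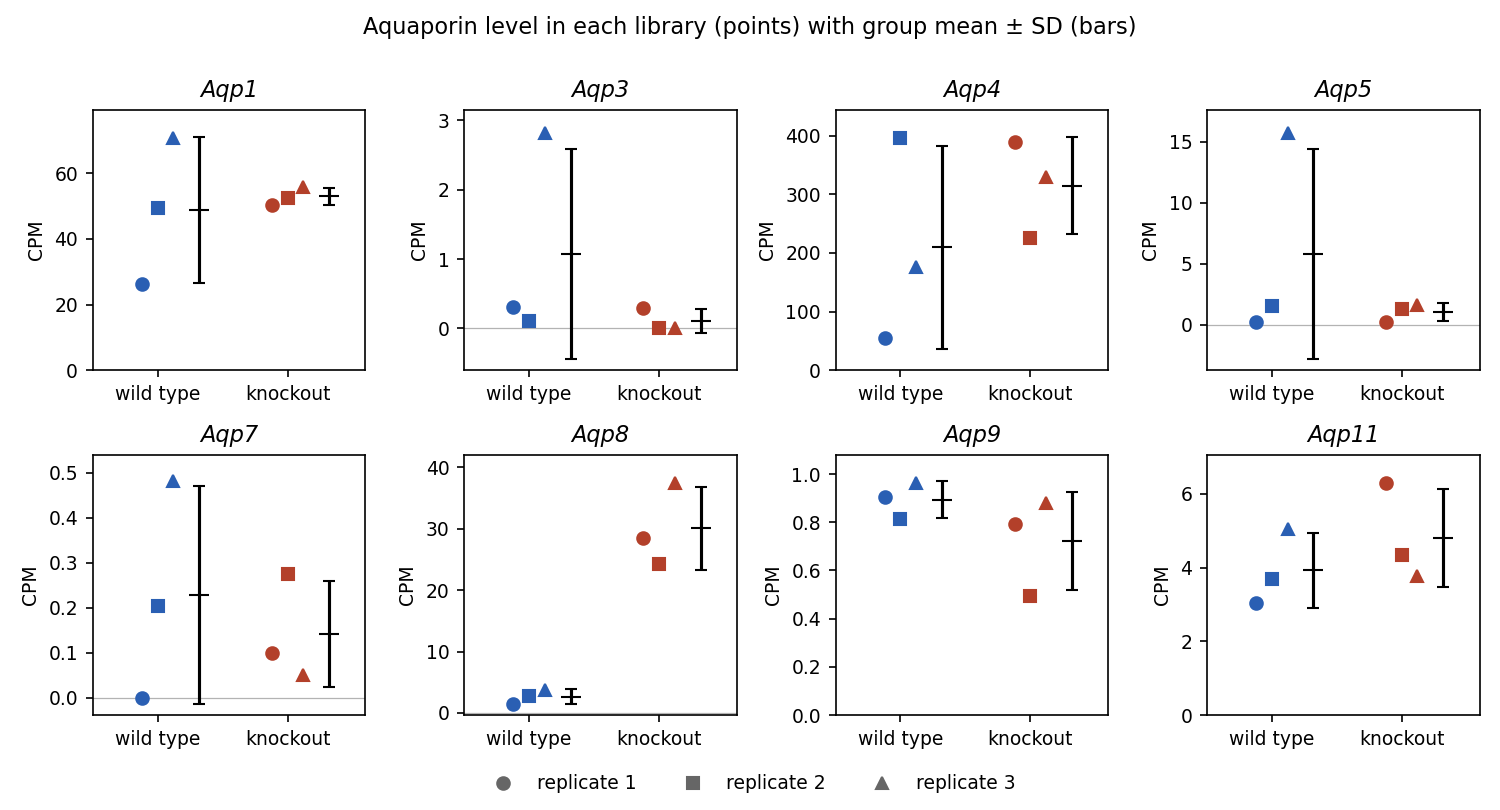
Each panel shows CPM of 1 aquaporin, with 1 point per library (marker shape gives the replicate) and the group mean ± SD (n = 3) beside the points. Aqp8 has separate groups, at 24.2 to 37.5 CPM for the knockout and 1.44 to 3.74 CPM for the wild type, and the triangles of wild-type replicate 3 stand high for Aqp3 and Aqp5.

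Most mature colonocyte markers also had higher values in the knockout, though by less than Aqp8. Of 18 such markers tested, 15 had a positive log2 fold change, with a median of 0.70, against 47.9% of all genes tested and a median of -0.01. None passed edgeR's quasi-likelihood test at an adjusted p under 0.05. At an unadjusted p under 0.05, 8 were higher (6.63% of all genes tested) and 0 lower (4.12% of all genes tested). DESeq2 called 4 higher (1.96% of all genes, either direction), limma-voom 0. For 8 of the 18 the knockout lay above without overlap (9.43% of all genes). The median was 0.40 without wild-type replicate 1 and 1.06 without wild-type replicate 3, each with 8 higher at an unadjusted p under 0.05. Without both it was 0.55, with 5 higher. The marker closest in size was Car4, a carbonic anhydrase of the surface membrane, with a log2 fold change of 2.48 (standard error 0.60), followed by Slc26a3, the chloride and bicarbonate exchanger, with 2.34 (standard error 0.61). Krt20, a keratin of the upper crypt, had -0.05, and Slc9a3, a sodium and proton exchanger, had -0.61. Slc9a3 became -0.14 without wild-type replicate 1, its highest library. The list thus held values in both directions, and Aqp8 lay above all 18.

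**Figure D3:**
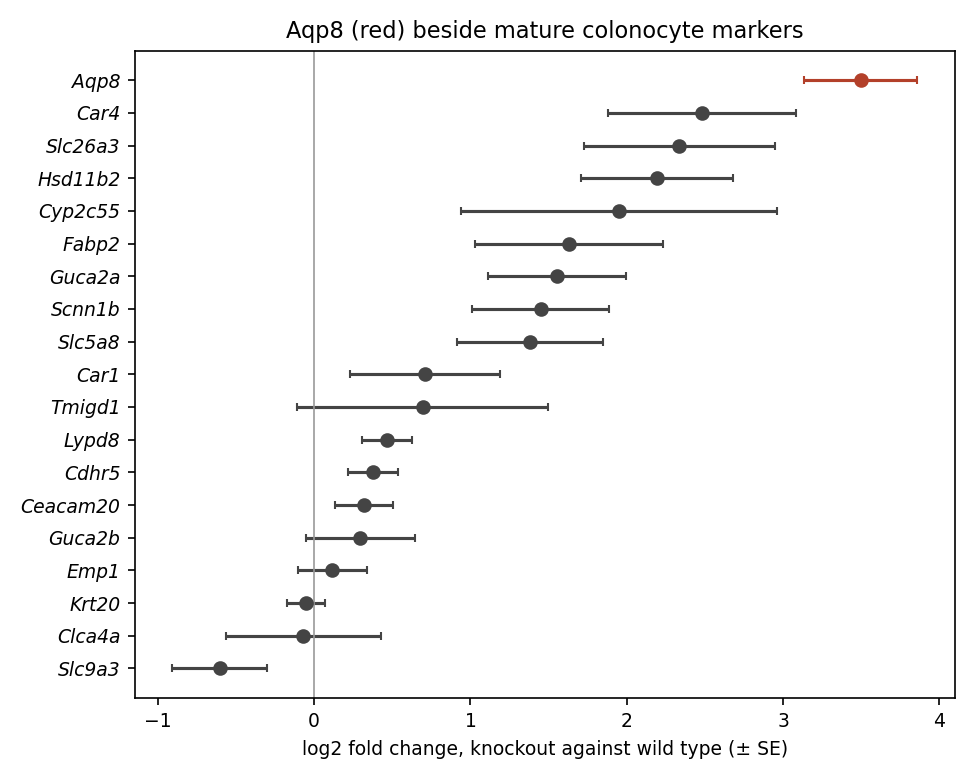
Points give the log2 fold change of knockout against wild type, with standard errors, for Aqp8 (red) and 18 markers of mature colonocytes (dark). Aqp8 lies at 3.50, above Car4 at 2.48, and 3 of the markers lie below 0.

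Aqp8 was also set against these markers within each library, as a description. Because Aqp8 was chosen with its group difference known, a gap from the mean of this list follows from that choice. Its log2 CPM minus the mean log2 CPM of the 18 markers was -1.86, -1.73 and -1.37 in the knockout libraries. The wild-type libraries gave -4.02, -4.35 and -3.90. The group means differed by 2.43 on the log2 scale, or by 1.68 when the median of the markers was used. Summed over the list, the markers measured 5874 to 7837 CPM for the knockout and 5038 to 5522 CPM for the wild type. Other cell types moved with the genotype too. Of 9 smooth muscle markers, 9 had a positive log2 fold change, with a median of 1.02, larger than that of the colonocyte markers. None passed edgeR's test at an adjusted p under 0.05. At an unadjusted p under 0.05, 6 were higher (6.63% of all genes) and 0 lower (4.12% of all genes). DESeq2 called 3 (1.96% of all genes, either direction), and in 5 the knockout lay above without overlap (9.43% of all genes). Their median was 0.82 without wild-type replicate 1, 0.98 without wild-type replicate 3 and 0.50 without both, where 1 was higher at an unadjusted p under 0.05. Acta2, the actin of smooth muscle, had 1.00 (standard error 0.25). Markers of the crypt base and progenitors went the other way, 10 of 10 negative with a median of -0.30. At an unadjusted p under 0.05, 2 were lower (4.12% of all genes) and 0 higher (6.63% of all genes). Of 11 macrophage markers 10 were positive, with a median of 0.31 and 5 higher at an unadjusted p under 0.05 (6.63% of all genes). Their median was 0.32 without wild-type replicate 1 and 0.29 without wild-type replicate 3, each with 4 higher. Without both it was 0.31. edgeR at an adjusted p under 0.05 and DESeq2 called 0 in both of these lists. In bulk tissue, fewer cells of a type and less RNA per cell cannot be told apart, and the part of cell makeup in the Aqp8 difference was not tested.

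The gene whose profile over the 6 libraries was most like that of Aqp8 was Slc25a34, a mitochondrial carrier. Likeness was the root mean square difference of log2 CPM, each gene centred on its own mean, among 13017 genes. It was 0.57 for Slc25a34. Next came Car4 at 0.62, the carboxylesterase gene Ces2a at 0.65, the glucagon gene Gcg at 0.70 and Slc26a3 at 0.70. Even the nearest gene thus departed from Aqp8 by more than 0.5 on the log2 scale.

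Aqp4, the most abundant aquaporin here, varied more within the wild type than between the groups. Its levels were 388.8, 225.1 and 330.6 CPM in knockout tumours and 55.3, 397.2 and 175.6 CPM in wild-type tumours. The highest and the lowest library were both wild-type, replicates 2 and 1, and the groups overlapped. The log2 fold change was 0.59 (standard error 0.61). It lay between 0.14 and 1.45 when 1 library at a time was left out. Against wild-type replicate 2 alone, without both replicates that stood apart, it was -0.34. Annotation places an antisense transcript across Aqp4 on the opposite strand, with 0 shared exon bases.

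Aqp4 kept closest company with goblet cell genes. The smallest root mean square differences from its profile were those of Agr2, a disulfide isomerase needed for mucin folding (0.17), Muc2, the gel-forming mucin of the colon (0.19), and Cgref1, a secreted calcium-binding protein gene (0.19). Muc2 stood at 6289, 3597 and 5293 CPM in knockout tumours against 843.9, 4812 and 2100 CPM in wild-type tumours. Both genes were lowest in wild-type replicate 1. Muc2 was highest in knockout replicate 1 and Aqp4 in wild-type replicate 2. Summed over 10 goblet cell markers, the levels were 7709 to 13222 CPM for the knockout and 2031 to 7854 CPM for the wild type, with wild-type replicate 1 lowest. All 10 had a positive log2 fold change, with a median of 0.87, and in 4 the knockout lay above without overlap (9.43% of all genes). None of the 10 passed edgeR's test at an adjusted p under 0.05. At an unadjusted p under 0.05, 5 were higher (6.63% of all genes) and 0 lower (4.12%), and DESeq2 called 3 (1.96% of all genes, either direction). The median was 0.57 without wild-type replicate 1, 0.80 without wild-type replicate 3 and 0.14 without both. Enteric glia can also carry Aqp4. Their defining marker Gfap was low, at most 1.55 CPM in any library. All 8 glial markers summed to 300.9 to 354.7 CPM for the knockout and 214.9 to 306.0 CPM for the wild type, most of it from Erbb3 and L1cam. The part of goblet cells or glia in the Aqp4 levels was not tested.

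Aqp1 had close means in both groups, 53.0 ± 2.72 CPM in knockout against 48.9 ± 22.3 CPM in wild-type tumours (SD, n = 3). Knockout tumours had 50.4, 52.7 and 55.8 CPM, wild-type tumours 26.3, 49.5 and 71.0 CPM. The 3 knockout values lay inside the wild-type range. The log2 fold change was 0.12 (standard error 0.32), and it was -0.19 without wild-type replicate 1. The cells known to carry Aqp1 had their own patterns. Summed over 12 endothelial markers, the levels were 285.1 to 389.3 CPM for the knockout and 262.2 to 323.7 CPM for the wild type. Summed over 8 red blood cell markers, they were 125.9 to 229.0 CPM in the knockout, 74.9 CPM in wild-type replicate 1, and 422.3 and 432.8 CPM in wild-type replicates 2 and 3. Wild-type replicate 1 was lowest for Aqp1 and for both of these marker sums. Hba-a1 and Hba-a2 of the red blood cell list both had 1241, 639 and 1174 reads in the knockout. In the wild type they had 553, 3361 and 3363 reads and 553, 3365 and 3365 reads. Their counts may be shared, so the sum may hold the same reads under both symbols. The part of blood or vessels in the Aqp1 levels was not tested. Its nearest profiles were those of F8a (0.08), Ust (0.09), a sulfotransferase gene, and Tmem8b (0.11).

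Aqp5 and Aqp3 stood out in 1 wild-type library. Aqp5, a channel of gland cells, had 0.198, 1.26 and 1.65 CPM in knockout tumours against 0.235, 1.52 and 15.7 CPM in wild-type tumours. Wild-type replicate 3 held 424 Aqp5 reads and no other library more than 45. The log2 fold change of -2.48 (standard error 1.38) became 0.23 without that library. Aqp3, a glycerol and water channel of basal epithelial membranes and of squamous epithelium, had 6, 0 and 0 reads in the knockout and 9, 3 and 76 in the wild type. Again the high library was wild-type replicate 3, at 2.82 CPM. The 0 counts of knockout replicates 2 and 3 allow levels of up to 0.165 and 0.155 CPM, for counting error only. Aqp3 did not pass the filter on low counts and has no fitted fold change.

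The same library carried a pair of squamous basal cell genes that were at or near 0 in the others. Krt5 and Trp63, which define basal cells of squamous epithelium, measured 8.27 and 6.49 CPM in wild-type replicate 3, at most 0.101 and 0.0671 CPM in the other wild-type libraries, and 0 reads in all 3 knockout libraries. Summed over 11 squamous markers, the levels were 31.3 to 67.5 CPM for the knockout and 39.0, 61.8 and 123.0 CPM for the wild type. Krt15, Krt4, Krt6a and Ivl of that list were also highest in wild-type replicate 3, at 38.4, 22.5, 10.2 and 0.741 CPM. Their highest values in any other library were 13.7, 9.63, 5.60 and 0.335 CPM. Krt13, Dsg3, Krt14 and Lor of that list were not highest there. Krt13 had 6.45 CPM in wild-type replicate 3 and 13.7 CPM in knockout replicate 2, Dsg3 had 6.64 and 13.7 CPM, and Krt14 had 23.2 and 23.9 CPM. Lor was at most 0.384 CPM in any library. Sprr3, a marker of cornified layers, was at 0 in every library. Sox10, which belongs to the enteric glia list and not to the squamous one, was named after its values were seen. It measured 8.12 CPM in this library and at most 1.19 CPM elsewhere. Gastric gland markers, another possible source of Aqp5, were highest in wild-type replicate 1 (300.9 CPM summed over 6 genes) and lowest in wild-type replicate 3 (93.7 CPM). The part of these tissues in the Aqp5 and Aqp3 levels was not tested. The genes closest to the Aqp5 profile were the heat shock genes Hspa1a (0.86) and Hspa1b (0.87) and the junctophilin gene Jph1 (0.93), so no gene matched it closely. Hspa1a and Hspa1b are near-identical copies whose counts may be shared.

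**Figure D4:**
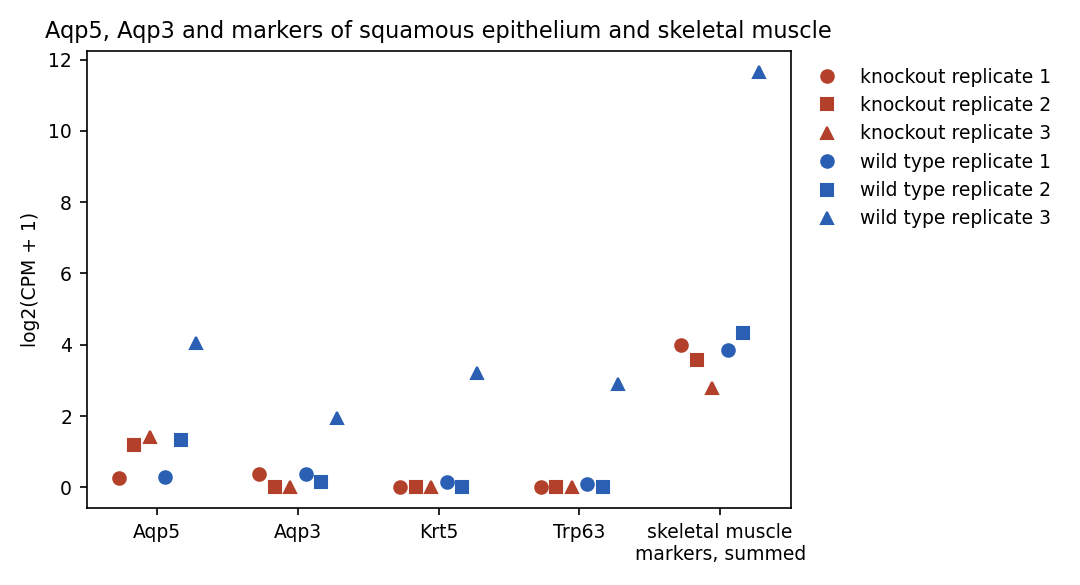
Points give log2(CPM + 1) in each of the 6 libraries for Aqp5, Aqp3, the squamous basal cell genes Krt5 and Trp63, and the sum of 9 skeletal muscle markers. Wild-type replicate 3 (blue triangle) is the highest point in each column, at 15.7 CPM for Aqp5 and 3248 CPM for the muscle sum.

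The other aquaglyceroporins were close to the limit of detection. Aqp7, the glycerol channel of fat cells, had 2, 5 and 1 reads in the knockout and 0, 6 and 13 in the wild type, and did not pass the filter. The 0 of wild-type replicate 1 allows up to 0.101 CPM. The fat cell markers Adipoq and Plin1 were at most 0.347 and 0.0549 CPM in any library, and all 8 fat cell markers summed to 20.7 to 24.2 CPM for the knockout and 17.7 to 27.7 CPM for the wild type. Aqp9, the glycerol channel of liver and of white blood cells, had 0.794, 0.494 and 0.879 CPM in knockout tumours against 0.906, 0.812 and 0.964 CPM in wild-type tumours. The groups overlapped, on 9 to 27 reads per library, and the log2 fold change was -0.30 (standard error 0.41). Summed over 11 neutrophil markers, the levels were 185.4 to 334.5 CPM for the knockout and 165.9 to 349.3 CPM for the wild type. Summed over 11 macrophage markers they were 779.6 to 1006 and 685.6 to 783.0 CPM.

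Aqp11 was detected in all libraries at a low and even level. Knockout tumours had 6.30, 4.34 and 3.77 CPM and wild-type tumours 3.05, 3.69 and 5.04 CPM. The groups overlapped, and the log2 fold change was 0.29 (standard error 0.31). The gene lies on chromosome 7 from 97724006 to 97738289, 4.82 Mb from Trim21, while Aqp8 lies 20.9 Mb from Trim21 on its other side. None of the other 6 listed genes is on that chromosome. The sources used here do not give the strain of the DNA around the Trim21 allele. Profiles nearest to Aqp11 were those of Prx (0.06), Tube1 (0.08) and Fpgs (0.08).

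**Figure D5:**
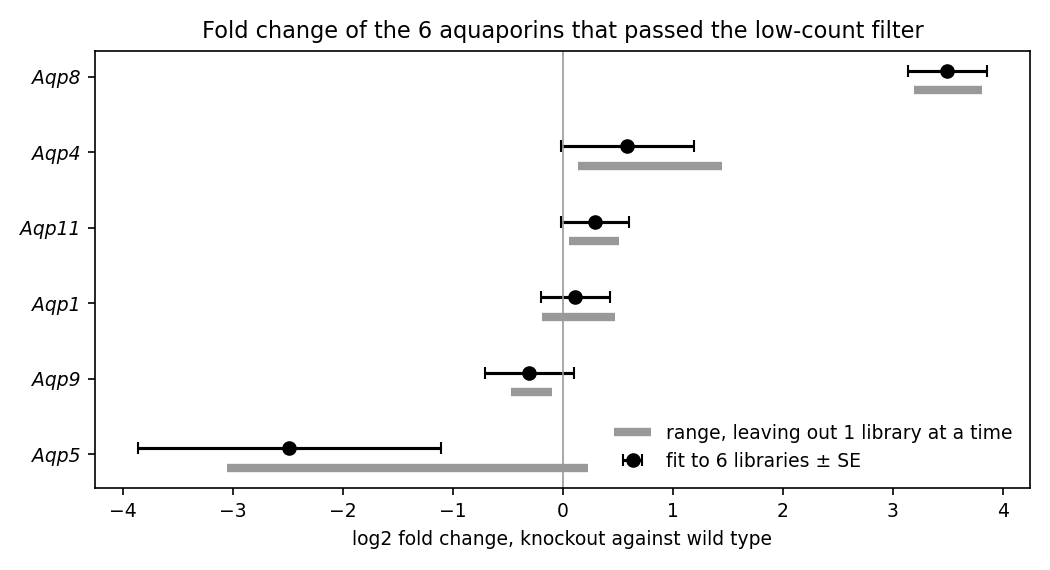
Points give the log2 fold change of knockout against wild type with its standard error for the 6 aquaporins that passed the filter on low counts, and grey bars the range when 1 library at a time is left out. The bar of Aqp8 runs from 3.20 to 3.82, and those of Aqp1 and Aqp5 cross 0.

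Across the 8 members, 6 passed the filter on low counts, and 4 of these had a positive and 2 a negative log2 fold change. In the fit across all 16281 genes, edgeR called 0 genes at an adjusted p under 0.05 (0%). DESeq2 called 335 genes (1.96%), limma-voom called 0, and 1750 genes (10.7%) had an unadjusted p under 0.05 in edgeR. Groups were separate in 1 of the 6, Aqp8, where 17.9% of all tested genes showed such a gap. Since this contrast led to the choice of members, nothing is read from these counts. The remaining 4 aquaporins in the files were near or at 0. Aqp2, the vasopressin-regulated channel of the kidney, had 0 reads in every library, and Aqp6 had 2 reads in all. Aqp12 had at most 6 reads in a library. Mip, the lens channel, had 1, 2 and 0 reads in the knockout and 10, 4 and 9 in the wild type.

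Genes of colonic ion transport, which create the gradients that water follows, had mostly higher values in the knockout. Of 24 tested, none passed edgeR's test at an adjusted p under 0.05. At an unadjusted p under 0.05, 13 were higher (6.63% of all genes) and 1 lower (4.12% of all genes). The median log2 fold change was 0.64, against -0.01 for all genes, and the groups were separate for 12 genes above (9.43% of all genes) and 1 below (8.47%). DESeq2 called 5 higher and 1 lower (1.96% of all genes, either direction). Without wild-type replicate 1 the median was 0.45, with 11 higher and 1 lower at an unadjusted p under 0.05, and without wild-type replicate 3 it was 0.75, with 9 higher and 2 lower. Without both it was 0.29, with 7 higher and 1 lower. Scnn1g, a subunit of the epithelial sodium channel, stood at 12.0 ± 3.81 CPM in knockout against 2.44 ± 0.900 CPM in wild-type tumours (SD, n = 3). Its log2 fold change was 2.29 (standard error 0.36, edgeR adjusted p = 0.322). Atp12a, the colonic proton and potassium pump, had 2.14 (standard error 0.38), and Slc9a2, a sodium and proton exchanger, had 1.04 (standard error 0.21). Kcne3, a potassium channel subunit of chloride secretion, went the other way at -0.45 (standard error 0.09). These 3 genes had the same edgeR adjusted p of 0.322. The list shares Car4, Slc26a3, Slc9a3, Scnn1b and Slc5a8 with the colonocyte markers. Both lists were chosen with earlier results of these data known, so their counts beside the shares of all genes are a description.

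Genes that anchor or move aquaporins showed no common direction. Of 18 tested, 0 passed edgeR's test at an adjusted p under 0.05. At an unadjusted p under 0.05, 3 were higher (6.63% of all genes) and 0 lower (4.12%), and the median log2 fold change was -0.07. Without wild-type replicate 1 it was 1 higher and 1 lower, and without wild-type replicate 3 it was 1 higher and 0 lower. Without both, the median log2 fold change was 0.04. In 3 genes the knockout lay above (9.43% of all genes) and in 3 below (8.47% of all genes) without overlap. Prkacb, a catalytic subunit of protein kinase A, had 0.83 (standard error 0.21, edgeR adjusted p = 0.334). DESeq2 called it as the only member of the list (1.96% of all genes, either direction). Nedd4l, a ubiquitin ligase of channels, had 0.26, and Ezr, which links membrane proteins to actin, had 0.21. Prkacb, Nedd4l and Ezr lay higher in every knockout library than in any wild-type library.

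Genes of glycerol handling differed little. None of 14 passed edgeR's test at an adjusted p under 0.05, 0 were higher (6.63% of all genes) and 1 lower (4.12%) at an unadjusted p under 0.05, and the median log2 fold change was 0.04. Without wild-type replicate 1 the median was -0.03, and without wild-type replicate 3 it was 0.13. DESeq2 and limma-voom called 0. Gpd1, which makes glycerol phosphate, was the gene with the lower value, at 32.2 ± 7.57 CPM in knockout against 49.3 ± 13.8 CPM in wild-type tumours (SD, n = 3), with overlapping groups (log2 fold change -0.61, edgeR adjusted p = 0.437). Without wild-type replicate 3, its highest library, Gpd1 had a log2 fold change of -0.36. Gpd1l had 0.15, Agpat2 0.20 and Gpd2 -0.23.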

How the data were processed

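The authors deposited whole-number read counts per gene symbol, 1 table for each of 6 colon tumour samples. Per the submitters' processing notes, mm10, TopHat2, edgeR and limma were used, with no roles or versions. The sources used here name no read counter, annotation or strand handling. Counts were analysed with edgeR 4.0.16 (quasi-likelihood test, TMM scaling, filterByExpr, group as the only term, Benjamini-Hochberg adjustment over 16281 genes, threshold 0.05). CPM is relative to the TMM-scaled library. RPKM divides it by the union of exons in GENCODE M21 (GRCm38, which mm10 denotes), where 24919 of 26214 symbols were found. Log2 CPM used a prior count of 2. Promoters came from RefSeq (GRCm38.p6), with entries for 7 of 8 aquaporins.

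The members and gene lists were chosen with earlier results of these data known. Named genes were the aquaporins, Trim21, the 4 lowest unadjusted p of each partner list, and the nearest profiles of the tested aquaporins that spanned at least 1 log2 unit (5 for Aqp8, 3 for others, mean log2 CPM at least 1). Genes named outside this rule, such as Sox10 and the other markers given with values, were chosen after their values were seen. Alternatives were DESeq2 1.42.0, limma-voom (limma 3.58.1), other scalings and filters, a block for the replicate number, and fits without single libraries. The tests were also run on simulated counts in which no library stood apart. That run does not show how they perform with libraries such as wild-type replicates 1 and 3. Results that need items withheld for evaluation are not reported here.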

Additional observations from a re-analysis of the deposited data

How the results depend on the processing

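The differences of Aqp8, Aqp9 and Aqp11 kept their direction under every alternative in which they were fitted. Those of Aqp9 and Aqp11 were smaller than their standard errors. The Aqp4 difference stayed positive without any single library, though its size changed, and those of Aqp1 and Aqp5 turned on single libraries. Without 1 library at a time, the log2 fold change ranged from 3.20 to 3.82 for Aqp8, 0.14 to 1.45 for Aqp4, -0.19 to 0.48 for Aqp1, -3.05 to 0.23 for Aqp5, -0.47 to -0.10 for Aqp9 and 0.05 to 0.51 for Aqp11. Aqp1 reversed to -0.19 without wild-type replicate 1 and Aqp5 to 0.23 without wild-type replicate 3, and the cause was not tested. Without both wild-type replicates 1 and 3, an alternative chosen after seeing the data, Aqp4 was -0.34 and 1 gene passed. DESeq2 called 335 genes (1.96% of all genes) and 7 of the 56 partner genes, where edgeR called 0 and 0. Without 1 library, edgeR called 0 to 1 genes, the 1 being Eif2s3y without wild-type replicate 3, and 0 partner genes. The difference of Aqp8 from the colonocyte markers was 2.43, 1.68 with their median, and 2.29 to 2.54 without 1 library.

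The replicate numbers did not pair the samples: deviations from the group means correlated at -0.15, -0.18 and -0.07 for numbers 1, 2 and 3, and none of the 3 numbers matched best with itself. With the number as a replicate block, edgeR called 0 genes, and Aqp8 had a log2 fold change of 3.56, Aqp4 0.96 and Aqp5 -1.48. Depth limits Aqp3, Aqp7 and Aqp9, which had at most 76 reads in a library.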
